A study of Mus musculus with 3 samples.

Results

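The 50 genes described here release calcium into the cytosol of the heart muscle cell, return it to its stores, pass it across membranes, sense it, or form the T-tubules at which release is triggered. They were picked by symbol from 18038 genes measured, and every one was present. By role they comprise 15 genes of release, 9 of pumps and their inhibitors, 4 of exchange, 4 of mitochondrial uptake, 12 of sensing and store-operated entry, and 6 of T-tubule formation. RNA sequencing was done on whole hearts of wild-type mice of the inbred C57BL/6J strain, 9 days after birth. There is 1 group of 3 samples, named hearts 1, 2 and 3 by replicate, with no treatment or engineered allele in the labels. The study as titled concerns glutamylated microtubules and the coupling of cardiomyocytes. Here the comparisons are between genes within a heart and between hearts.

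In heart muscle an action potential opens L-type calcium channels in the T-tubules, and the calcium that enters opens ryanodine receptors in the facing membrane of the sarcoplasmic reticulum, the calcium store. Most of the released calcium is pumped back by SERCA, which phospholamban and sarcolipin inhibit, and the rest leaves through the sodium-calcium exchanger, the plasma membrane pumps and the mitochondrial uniporter. Rodent heart cells build their T-tubules in the weeks after birth, and junctophilins, Bin1, Cav3 and dysferlin take part in forming or holding these membranes.

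Library totals were 17766501, 18643408 and 18768094 counts, of which the 50 genes held 2.48%, 2.40% and 2.20% in hearts 1, 2 and 3. The cardiomyocyte markers Myh6 and Tnnt2 averaged 12281 ± 318 and 12910 ± 1549 TPM (SD, n = 3 hearts throughout), where TPM is the authors' length-scaled FPKM value rescaled to a total of 1000000 per heart. Being whole hearts, the samples held other cells: the endothelial marker Pecam1 was at 229 ± 15.5 TPM and the fibroblast marker Col1a1 at 667 ± 23.2 TPM. Fewer cells of a type and less RNA per cell cannot be told apart in such samples. Heart 1 stood apart in airway and lung markers, all 6 of 6 tested being called as varying by the test described further on: the 7 listed summed to 1703 TPM in heart 1, 0.800 in heart 2 and 6.75 in heart 3, and Scgb1a1 had 4096, 1 and 13 counts. The labels do not say whether the hearts came from separate animals or litters, so every p-value here speaks of the spread of these 3 samples, which may be technical.

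Of the 50 genes, 45 were detected, meaning that no heart was below 1 CPM, the count per 1000000 counts of its library, a share of 90% against 71.8% of all genes. The 5 below that minimum were Ryr1, Atp2a1, Atp2b3, Slc8a3 and Jph3, all paralogs of a detected gene. The median level of the 50 was 27.3 TPM against 9.41 TPM over all genes. Their summed level was 15920.4, 15662 and 14662 TPM in hearts 1, 2 and 3, and Atp2a2 and Pln alone held 59.7% of it. By role the sums were 9723 ± 824 TPM for pumps and inhibitors, 2795 ± 95.5 for release, 1797 ± 150.1 for sensors and entry, 524 ± 20.0 for mitochondrial uptake, 485 ± 2.64 for T-tubule formation and 91.3 ± 18.1 TPM for exchange. In order of mean level 2 genes were at 1000 TPM or more, 14 between 100 and 1000, 18 between 10 and 100, 10 between 1 and 10, and 6 below 1 TPM. Of the 49 pairs of neighbours in that order, 30 had overlapping ranges over the hearts, so their order is not fixed by these data.

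**Figure D1:**
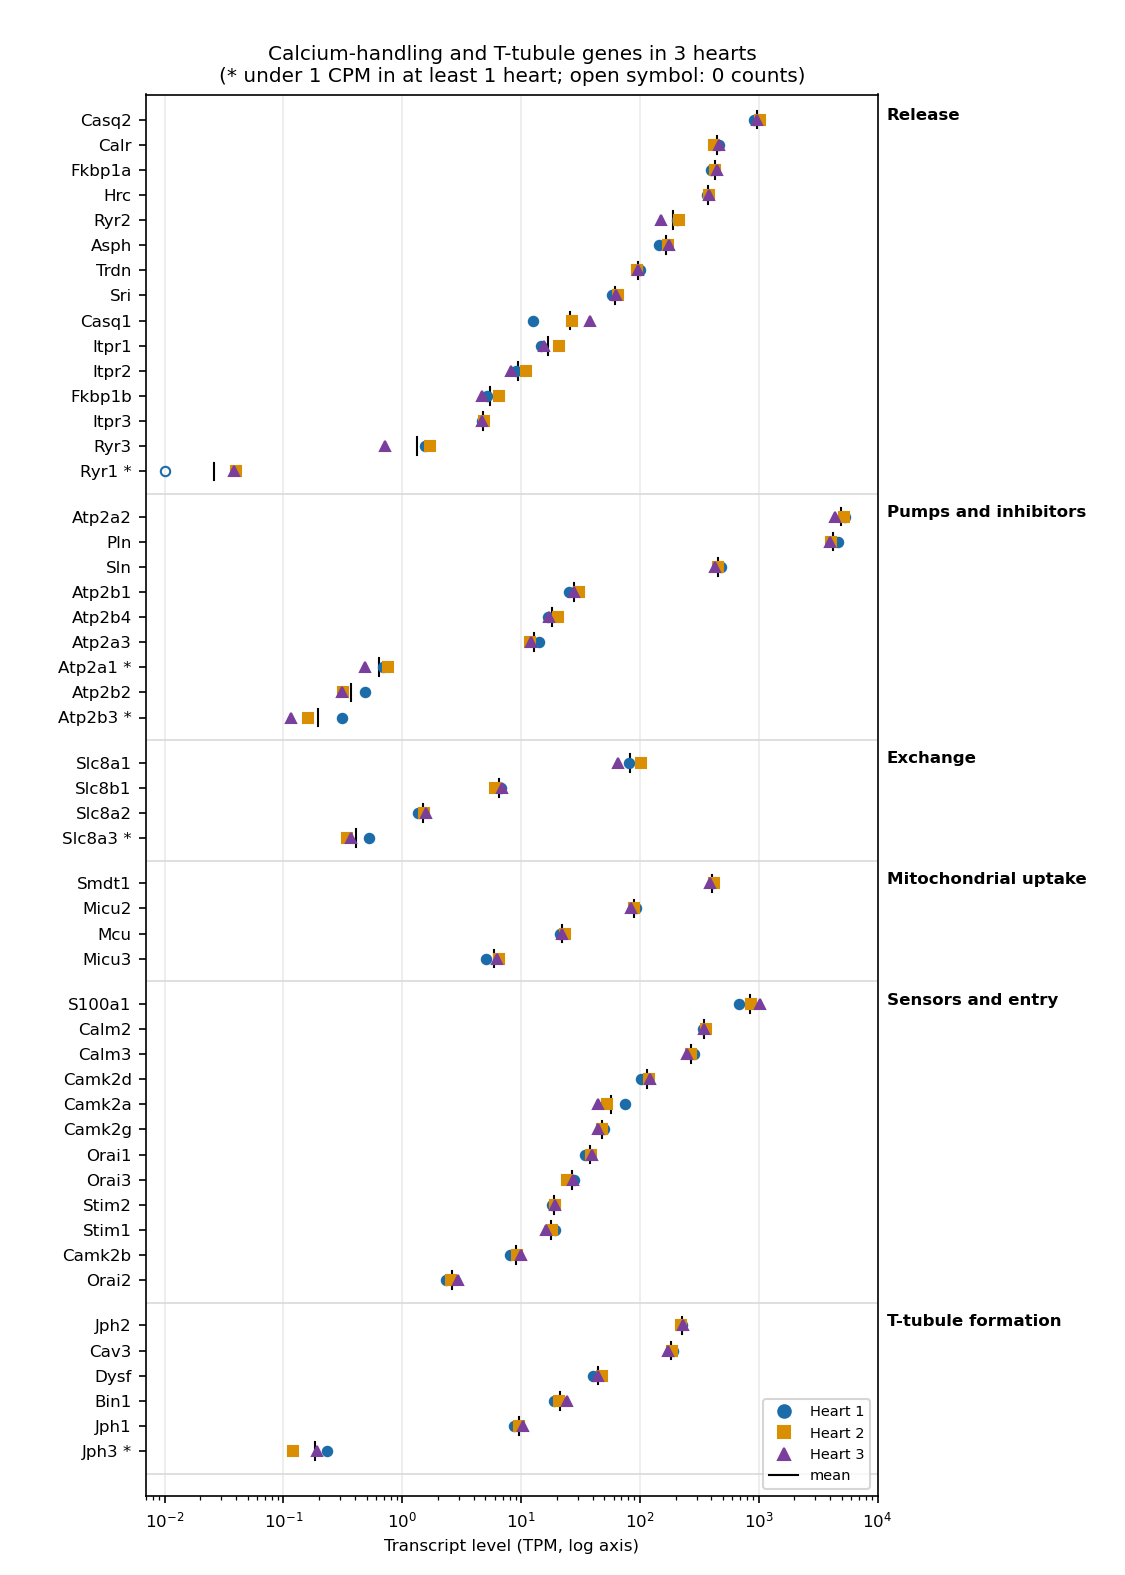
Level of each of the 50 genes in TPM (horizontal log axis) in hearts 1, 2 and 3, grouped by role, with the mean as a bar and the single 0-count value drawn open at the left edge. Atp2a2 and Pln sit above 1000 TPM in every heart, and Ryr2, Atp2a2, Casq2, Slc8a1, Jph2 and Fkbp1a stand far to the right of their paralogs.

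Ryanodine receptors, the release channels, were almost wholly of the cardiac form Ryr2 (Entrez gene ID 20191, chr13:11553099-12108324 in GRCm38). Ryr2 was at 205, 214 and 149.9 TPM in hearts 1, 2 and 3 and held 99.3% ± 0.168 of the summed TPM of the family. Heart 3 was the lowest. Ryr3, a form with wide low expression, was at 1.56, 1.72 and 0.715 TPM, and heart 3 was again the lowest. Ryr1, the skeletal muscle form, had 0, 4 and 6 counts. A count of 0 in heart 1 allows up to 3 counts, or 0.0247 TPM, for counting error only.

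IP3 receptors, release channels opened by inositol trisphosphate, were spread over all 3 genes. Itpr1 was at 14.6, 20.7 and 15.5 TPM, Itpr2 at 9.05, 11.002 and 8.24 TPM and Itpr3 at 4.69, 4.90 and 4.72 TPM. Heart 2 was the highest for each, and the 3 genes kept the same order in every heart. Itpr1 held 54.2% ± 2.49 of the family, Itpr2 30.3% ± 1.47 and Itpr3 15.5% ± 1.83. The summed ryanodine receptors exceeded the summed IP3 receptors 6.15-fold (SD 1.01), with ratios of 7.27, 5.89 and 5.30 in hearts 1, 2 and 3.

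Inside the store, calcium is bound by calsequestrin, calreticulin and the histidine-rich protein Hrc. Casq2, the cardiac calsequestrin (ID 12373, chr3:102086339-102162632), was the highest release gene at 905, 1029.9 and 968 TPM. Calr, which also folds proteins in the endoplasmic reticulum, was at 463, 422 and 461 TPM. Hrc was at 368, 379 and 380.1 TPM, with a coefficient of variation of 1.76%, the lowest of the 45 detected genes. Casq1, the skeletal muscle calsequestrin, was far lower and differed most between hearts, as described further on. Casq2 held 97.4% ± 1.21 of the summed calsequestrin TPM, with 98.6%, 97.5% and 96.2% in hearts 1, 2 and 3.

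Triadin and junctin anchor calsequestrin to the release channel. Trdn was at 100.5, 93.9 and 96.7 TPM. Asph, whose locus makes junctin and also an aspartyl hydroxylase, was at 145, 173 and 177 TPM. The hearts were close for Trdn, and heart 1 was the lowest for Asph. The length implied by count and FPKM differed 1.10-fold between hearts for Asph, which was at 213, 243 and 240 CPM. Of its exon bases 14.3% are shared with Clvs1 on the opposite strand. The level of Asph depends on the length assumed, since the count and FPKM of the table imply 2759.9 bases and the longest annotated transcript has 6694; with the longest length the mean would be 67.9 TPM instead of 165. Sri, which encodes sorcin, a calcium-binding regulator of the release channel, was at 57.9, 65.5 and 62.9 TPM.

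FKBP12 and FKBP12.6, encoded by Fkbp1a and Fkbp1b, bind and steady the release channel. Fkbp1b had 42, 52 and 41 counts, or 5.20, 6.56 and 4.72 TPM. Fkbp1a was at 399, 429 and 448 TPM and held 98.7% ± 0.231 of their sum. Fkbp1a was far above Fkbp1b in every heart. The coding sequences are shown because a read has to be assigned to the right one of these similar genes. They are 327 bases each, identical at 245 positions (74.9%), with no shared run longer than 14 bases. The first 300 bases of each are printed, with the positions at which they differ in capitals, from GENCODE M21, GRCm38, 5′ to 3′ on the coding strand (Fkbp1b, minus strand of chromosome 12; Fkbp1a, plus strand of chromosome 2).
Fkbp1b: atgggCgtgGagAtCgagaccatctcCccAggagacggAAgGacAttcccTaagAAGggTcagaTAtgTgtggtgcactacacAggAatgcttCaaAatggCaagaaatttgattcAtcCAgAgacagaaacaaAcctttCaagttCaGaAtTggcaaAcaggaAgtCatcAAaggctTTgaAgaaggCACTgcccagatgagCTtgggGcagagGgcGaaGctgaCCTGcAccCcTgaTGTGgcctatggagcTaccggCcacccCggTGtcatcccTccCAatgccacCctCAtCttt
Fkbp1a: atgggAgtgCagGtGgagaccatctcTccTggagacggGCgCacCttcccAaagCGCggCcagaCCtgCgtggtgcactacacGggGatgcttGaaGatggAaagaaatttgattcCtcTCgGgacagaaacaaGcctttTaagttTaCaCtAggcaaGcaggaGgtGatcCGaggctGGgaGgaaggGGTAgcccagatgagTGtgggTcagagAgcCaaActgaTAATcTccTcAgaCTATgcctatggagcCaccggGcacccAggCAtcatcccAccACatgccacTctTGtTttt

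To compare genes within hearts, each was set against a chosen gene of its family or role in the edgeR quasi-likelihood test, with the heart as a block, gene length in the offset and adjustment over all 15180 other genes. In all 55 ratios among the 50 genes were tested, 51 passed the threshold of an adjusted p under 0.05, and 4 did not. Most of all genes pass such a test too, because levels span orders of magnitude, so a call says only that the spread between hearts is smaller than the distance. Ratios to the same gene share its counts and are not independent, and the spread is shared over genes that all repeat that gene. With the spread of each gene alone over 3 hearts (limma, chosen after the data were seen) 50 ratios passed.

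Against Ryr2, 10 of 12 genes were called, 2 higher and 8 lower, beside 97.2% of all genes (3.79% higher and 93.5% lower). Ryr3 was lower by a log2 ratio of -7.22 (SE 0.269) and Ryr1 by -12.80 (SE 0.514). The size of the Ryr1 ratio rests on 10 counts in all and was -12.15 without heart 1 and -10.55 on log2(TPM + 0.1). Itpr1, Itpr2 and Itpr3 were lower by -3.48, -4.32 and -5.30, Sri by -1.59, Trdn by -0.95 and Fkbp1b by -5.10. Casq2 was higher than Ryr2 by 2.37 (SE 0.230) and Fkbp1a by 1.18 (SE 0.209). Per count and not per length both turn round, Casq2 to -0.42 (no longer called, edgeR adjusted p = 0.0574) and Fkbp1a to -2.23, since the Ryr2 transcript of 16742 bases yields more reads per molecule. Asph (-0.19, 95% interval -0.58 to 0.21, edgeR adjusted p = 0.359) and Jph2 (0.28, interval -0.14 to 0.69, edgeR adjusted p = 0.191) were not distinguished from Ryr2. Per count Jph2 was called lower, by -1.74, and Asph by -2.79. Asph was also called lower with longest transcript lengths (-1.46) and without heart 3 (-0.36, edgeR adjusted p = 0.00349).

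Against Itpr1, both Itpr2 and Itpr3 were called lower, beside 85.3% of all genes called and 46.7% called lower, with log2 ratios of -0.84 (SE 0.196) and -1.81 (SE 0.211). With heart 3 left out, Itpr2 was no longer called (-0.80, edgeR adjusted p = 0.0576). Against Casq2, all 5 genes tested were lower, beside 99.6% of all genes called and 98.8% called lower. Calr was lower by -1.11, Hrc by -1.36, Asph by -2.55, Trdn by -3.32 and Casq1 by -5.34 (SE 0.282). Fkbp1b was below Fkbp1a by -6.28 (SE 0.273), beside 99.4% of all genes called and 97.3% called lower.

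Atp2a2, the cardiac SERCA pump (ID 11938, chr5:122453513-122502280), was the highest of the 50 genes at 5297, 5230.3 and 4376 TPM, and 14 genes of the whole table were above it. It held 99.7% ± 0.0246 of SERCA TPM and on average 45.4% of the counts of the 50 genes. Heart 3 was the lowest. Atp2a3, a form of non-muscle cells and endothelium, was at 14.2, 11.9 and 12.1 TPM. Atp2a1, the fast skeletal muscle form, had 21, 24 and 16 counts, and 21.9% of its exon bases are shared with Rabep2 on the opposite strand, whose reads cannot be told apart because the strand setting is not stated.

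Pln, phospholamban (ID 18821), was at 4650.01, 4078 and 3984 TPM, with heart 1 the highest. Sln, sarcolipin, which in mouse is mainly atrial in the heart, was at 483, 458 and 432 TPM in hearts 1, 2 and 3. Its hearts lay within a coefficient of variation of 5.61%. The atrial markers Myl7 and Myl4 were at 3644, 2934 and 2728 TPM and at 1698, 1525 and 1362 TPM. Both were highest in heart 1 and lowest in heart 3 like Sln, and so were Dkk3 and Stard10. The other atrial markers listed, Nppa, Bmp10 and Kcna5, were instead lowest in heart 1. Of the atrial markers only Bmp10 was called as varying, by the test described further on. The part of atrial RNA in the level of Sln was not tested. Pln and Sln together reached 0.949 (SD 0.0731) of the Atp2a2 level, with 0.969, 0.867 and 1.01 in hearts 1, 2 and 3. Both inhibitors are very short proteins that sit in the pump's membrane. Their coding sequences are shown with the start and stop codons in capitals, from GENCODE M21, GRCm38, plus strand: 96 bases (31 codons before the stop) for Sln at chr9:53853473-53853568 and 159 bases (52 codons) for Pln at chr10:53343864-53344022.
Sln: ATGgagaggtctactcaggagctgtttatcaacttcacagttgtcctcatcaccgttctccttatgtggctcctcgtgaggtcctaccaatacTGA
Pln: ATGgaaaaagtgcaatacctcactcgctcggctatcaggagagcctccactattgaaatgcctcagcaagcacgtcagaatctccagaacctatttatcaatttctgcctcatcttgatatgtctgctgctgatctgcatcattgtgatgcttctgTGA

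Against Atp2a2, 7 of 8 genes were lower, beside 100% of all genes called (15175 of 15180) and 99.9% called lower. Pln was the exception at -0.23 (95% interval -0.55 to 0.09, edgeR adjusted p = 0.154). It was below Atp2a2 in 3 of 3 hearts, and several settings called it lower: the test without the heart block (-0.23, edgeR adjusted p = 0.0298), a filter of 1 CPM (edgeR adjusted p = 0.0142), DESeq2 (adjusted p = 0.0260), and leaving out heart 3 (-0.27, edgeR adjusted p = 0.00838). Its near equality with Atp2a2 holds per length: per count Pln was lower by -1.13. Sln was below Atp2a2 by -3.44 (SE 0.109) and below Pln by -3.21 (SE 0.0931). Against Pln 100% of all genes were called and 99.9% called lower. The Sln transcript implied by the table has 432 bases and the longest annotated one 1318, with which the mean level would be 150.1 TPM instead of 458 and the ratio to Pln -4.78. Atp2a3 was lower than Atp2a2 by -8.60 and Atp2a1 by -12.93. Ryr2, the channel that empties the store which Atp2a2 fills, was lower by -4.72 (SE 0.145).

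Plasma membrane calcium pumps were low beside SERCA, at 0.00946 (SD 0.00122) of the SERCA sum. Atp2b1, the housekeeping form, was at 25.1, 31.0 and 28.0 TPM and Atp2b4 at 16.9, 20.5 and 17.1 TPM. Heart 2 was the highest for both. Atp2b1 held 59.9% ± 1.49 of the family and Atp2b4 38.8% ± 1.14. Atp2b2 and Atp2b3, forms of neurons and some other excitable cells, had 33, 22 and 23 counts and 17, 8 and 8 counts. Against Atp2b1 all 3 paralogs were lower, beside 91.3% of all genes called and 62.7% called lower: Atp2b4 by -0.63 (SE 0.0974), Atp2b2 by -6.25 and Atp2b3 by -7.20.

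Transcripts of the sodium-calcium exchangers were mostly of Slc8a1 (ID 20541, chr17:81353906-81738688), which encodes NCX1, the exchanger of the cardiac surface membrane. Slc8a1 held 97.7% ± 0.555 of the summed TPM of Slc8a1, Slc8a2 and Slc8a3. It was at 80.6, 103 and 65.6 TPM, with 10903, 12886 and 10129 counts. Heart 2 was the highest and heart 3 the lowest. The length implied by count and FPKM differed 1.18-fold between hearts for this gene, so its TPM and its counts do not differ between hearts by the same factor. Slc8a2 and Slc8a3, mainly neuronal and skeletal muscle exchangers, had 61, 62 and 68 counts and 16, 11 and 15 counts. Slc8b1, the mitochondrial sodium-calcium exchanger that lets calcium out of the matrix, was at 6.74, 5.98 and 6.88 TPM.

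Against Slc8a1 all 5 genes tested were lower, beside 95.2% of all genes called and 85.3% called lower. Slc8a2 was lower by -5.78 and Slc8a3 by -7.65. The plasma membrane pump genes, which like NCX1 carry calcium out of the cell, were closer: Atp2b1 by -1.56 (SE 0.145) and Atp2b4 by -2.18 (SE 0.1498). Slc8b1 was lower by -3.66. Slc8a1 itself was below Atp2a2 by -5.91 (SE 0.133).

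The mitochondrial uniporter consists of the pore Mcu, the essential small regulator EMRE from Smdt1, and gatekeepers of the Micu family. Smdt1 was at 412, 421 and 389 TPM, Micu2 at 92.4, 89.2 and 84.9 TPM, Mcu at 21.3, 23.2 and 21.999 TPM, and Micu3 at 5.02, 6.501 and 6.302 TPM. The order was the same in every heart, with no overlap between genes. All 4 genes set against Mcu were called, beside 92.6% of all genes (35% higher and 57.5% lower): Smdt1 higher by 4.20 (SE 0.0646), Micu2 higher by 2.00 (SE 0.0660), Slc8b1 lower by -1.76 and Micu3 lower by -1.91. The Smdt1 transcript is only 497 bases, and per count it exceeded Mcu by 1.71. Of its exon bases 16.6% are shared with Pheta2 on the same strand. Among other genes of mitochondrial calcium transport, all 10 of 10 were detected, and the highest were the outer membrane channels Vdac1 at 821 ± 16.0, Vdac2 at 627 ± 14.6 and Vdac3 at 467 ± 23.8 TPM, then Ghitm, an inner membrane protein, at 308 ± 16.6 TPM.

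**Figure D2:**
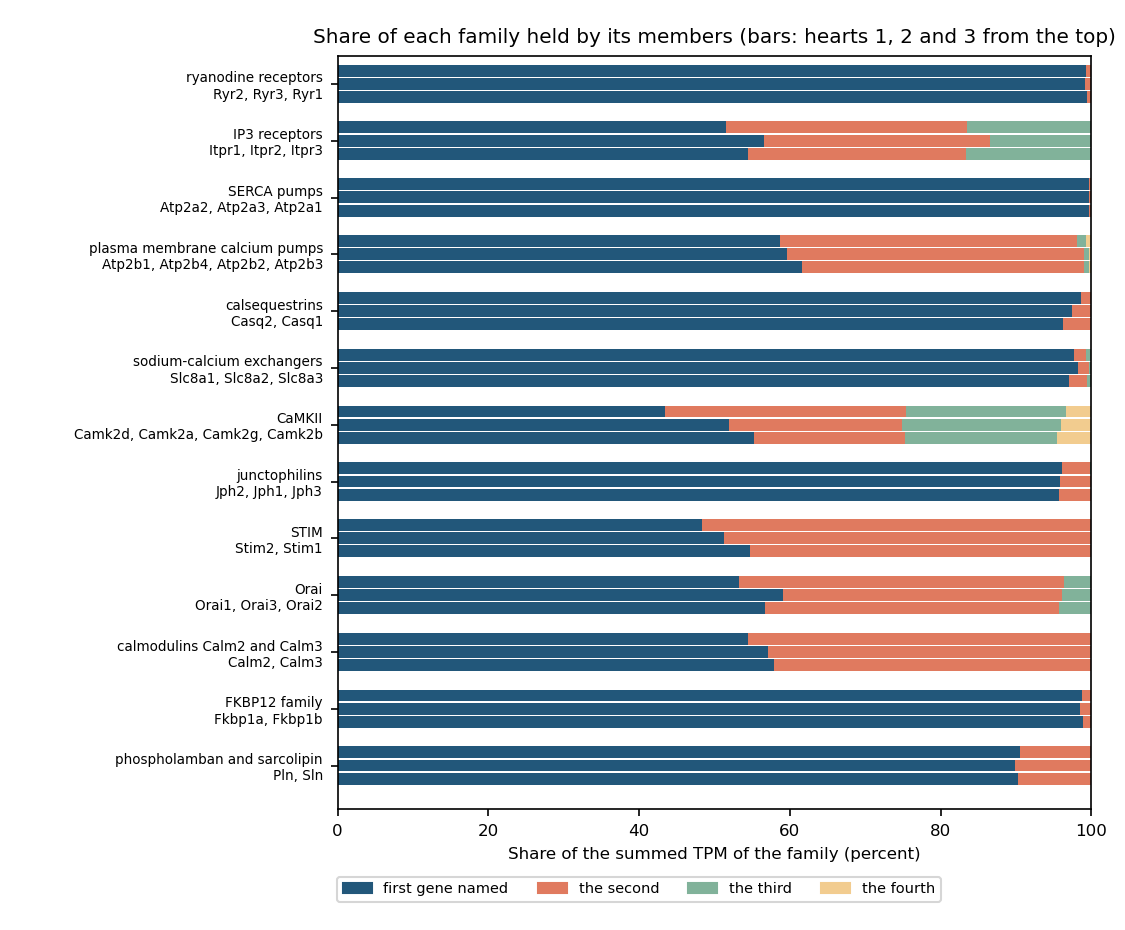
Share of the summed TPM of each gene family held by each member (horizontal axis, percent), with bars for hearts 1, 2 and 3 from the top. Ryr2, Atp2a2, Casq2, Slc8a1, Jph2 and Fkbp1a each hold over 95% of their family in every heart, whereas IP3 receptors, CaMKII, Stim, Orai, calmodulin and plasma membrane pump genes are divided.

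Calmodulin, the main cytosolic calcium sensor, is encoded in the 50 genes by Calm2 and Calm3, which make the same protein. Calm3 was at 284, 269 and 249.6 TPM and Calm2 at 339, 357 and 344 TPM. The ranges did not overlap. Calm3 was the lower, with a log2 difference of -0.38 (SE 0.0663; edgeR, adjusted p = 0.000995), beside 99.4% of all genes called and 96.9% called lower. Per count the ratio was 0.54, because the Calm3 transcript is longer at 2123 against 1127 bases. The coding sequences show how reads of these genes can be told apart: of 450 bases 372 are identical (82.7%), and 74 of the 78 differences fall on the third base of a codon. The longest run without a difference is 17 bases. The first 300 bases are printed with the differences in capitals, from GENCODE M21, GRCm38, both on the minus strand (Calm3, chromosome 7; Calm2, chromosome 17).
Calm3: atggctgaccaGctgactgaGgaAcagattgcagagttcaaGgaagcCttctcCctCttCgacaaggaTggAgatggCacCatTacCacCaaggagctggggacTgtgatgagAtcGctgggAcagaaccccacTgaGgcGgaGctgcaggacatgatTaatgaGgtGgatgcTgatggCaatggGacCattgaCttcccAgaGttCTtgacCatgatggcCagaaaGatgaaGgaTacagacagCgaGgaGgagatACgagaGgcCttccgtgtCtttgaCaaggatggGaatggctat
Calm2: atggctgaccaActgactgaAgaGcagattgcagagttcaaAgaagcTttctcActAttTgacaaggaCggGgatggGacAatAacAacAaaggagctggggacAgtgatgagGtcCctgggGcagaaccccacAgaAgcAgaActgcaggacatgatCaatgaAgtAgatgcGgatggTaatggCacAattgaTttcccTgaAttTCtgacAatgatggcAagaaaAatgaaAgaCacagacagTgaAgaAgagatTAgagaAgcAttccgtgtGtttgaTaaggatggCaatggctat

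Transcripts of CaMKII, the calmodulin-dependent kinase that phosphorylates Ryr2 and phospholamban, came from all 4 genes. Camk2d, the main cardiac gene, was at 102, 119 and 122 TPM and held 50.2% ± 6.14 of the family. Camk2a, best known from brain, was at 75.5, 52.4 and 44.1 TPM, and Camk2g at 50.1, 48.4 and 44.4 TPM. Heart 1 was the lowest for Camk2d and the highest for Camk2a, so the Camk2a share was 32.0% in heart 1, 22.9% in heart 2 and 20.0% in heart 3. Camk2b was at 7.996, 9.18 and 9.99 TPM. Against Camk2d all 3 were lower, beside 96.7% of all genes called and 89.7% called lower: Camk2a by -1.03 (SE 0.1504), Camk2g by -1.26 (SE 0.117) and Camk2b by -3.66 (SE 0.137). The log2 TPM ratio of Camk2a to Camk2d was -0.44, -1.18 and -1.47 in hearts 1, 2 and 3, wider than the interval of the fit, and with the spread of this gene alone the call was lost (limma adjusted p = 0.0820).

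S100a1, a small calcium-binding protein of muscle that acts on SERCA and the release channel, was at 677, 856 and 1018 TPM with 3211, 4211 and 5252 counts. Heart 1 was the lowest and heart 3 the highest, and its level overlapped with that of Casq2. Store-operated entry refills the store through Orai channels gated by the store sensors Stim1 and Stim2. Stim2 was at 18.2, 19.2 and 19.5 TPM and Stim1 at 19.4, 18.3 and 16.1 TPM. They were not distinguished per length (log2 ratio 0.08, 95% interval -0.12 to 0.28, edgeR adjusted p = 0.372). Per count Stim2 was called higher, with 37.2, 39.0 and 40.7 CPM against 35.3, 33.0 and 30.5 CPM for Stim1. Orai1 was at 34.7, 38.7 and 39.8 TPM, Orai3 at 28.1, 24.3 and 27.4 TPM and Orai2 at 2.33, 2.56 and 2.96 TPM.

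Against Stim1, 3 of 4 genes were called, beside 91.8% of all genes (40.4% higher and 51.4% lower): Orai1 higher by 1.08 (SE 0.0808), Orai3 higher by 0.57 (SE 0.0860) and Orai2 lower by -2.78 (SE 0.167). Per count Orai1 and Orai3 were lower than Stim1, by -0.35 and -0.60. Against Orai1, Orai3 was lower by -0.51 (SE 0.0716) and Orai2 by -3.86 (SE 0.148), beside 94.2% of all genes called and 71.4% called lower. Of the other sensor and entry genes listed, 12 of the 14 measured were detected, among them Saraf, a brake on Stim1, at 165 ± 7.71 TPM, S100a6 at 80.8 ± 12.4 TPM and Ppp3r1, the regulatory subunit of the phosphatase calcineurin, at 79.8 ± 4.55 TPM.

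Junctophilins bridge the T-tubule and the sarcoplasmic reticulum. Jph2, the cardiac form (ID 59091, chr2:163336242-163398049), was at 226, 223 and 232 TPM and held 95.9% ± 0.246 of the family. Jph1, the skeletal muscle form, was at 8.80, 9.54 and 10.3 TPM. Jph3, a neuronal form, had 8, 4 and 7 counts. Jph1 was below Jph2 by -4.57 (SE 0.0840) and Jph3 by -10.29 (SE 0.358), beside 99% of all genes called and 95.3% called lower.

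Cav3, the muscle caveolin, was at 189, 186 and 172 TPM. Dysf, the membrane repair protein dysferlin, was at 40.6, 48.3 and 44.6 TPM. Bin1, which curves membranes into tubules, was at 18.9, 20.9 and 24.3 TPM, with heart 1 the lowest and heart 3 the highest. Cav3 was above Bin1 by 3.10 (SE 0.179) and Dysf above Bin1 by 1.06 (SE 0.167) in 3 of 3 hearts, beside 86.8% of all genes called and 33.4% called higher. The summed level of the 6 T-tubule genes was 484, 488 and 484 TPM, the narrowest spread of the role groups in TPM. In CPM it was 758 ± 19.7, a wider spread than that of mitochondrial uptake at 245 ± 3.53. Of 12 further genes of T-tubules and their neighbourhood, all were detected, and the highest were the Z-disc protein Ldb3 at 845 ± 23.4 TPM, Cav1, the caveolin of endothelium and other non-muscle cells, at 560.3 ± 68.8 TPM, the titin cap protein Tcap at 476 ± 97.6 TPM and the membrane trafficking ATPase Ehd4 at 383 ± 14.6 TPM.

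**Figure D3:**
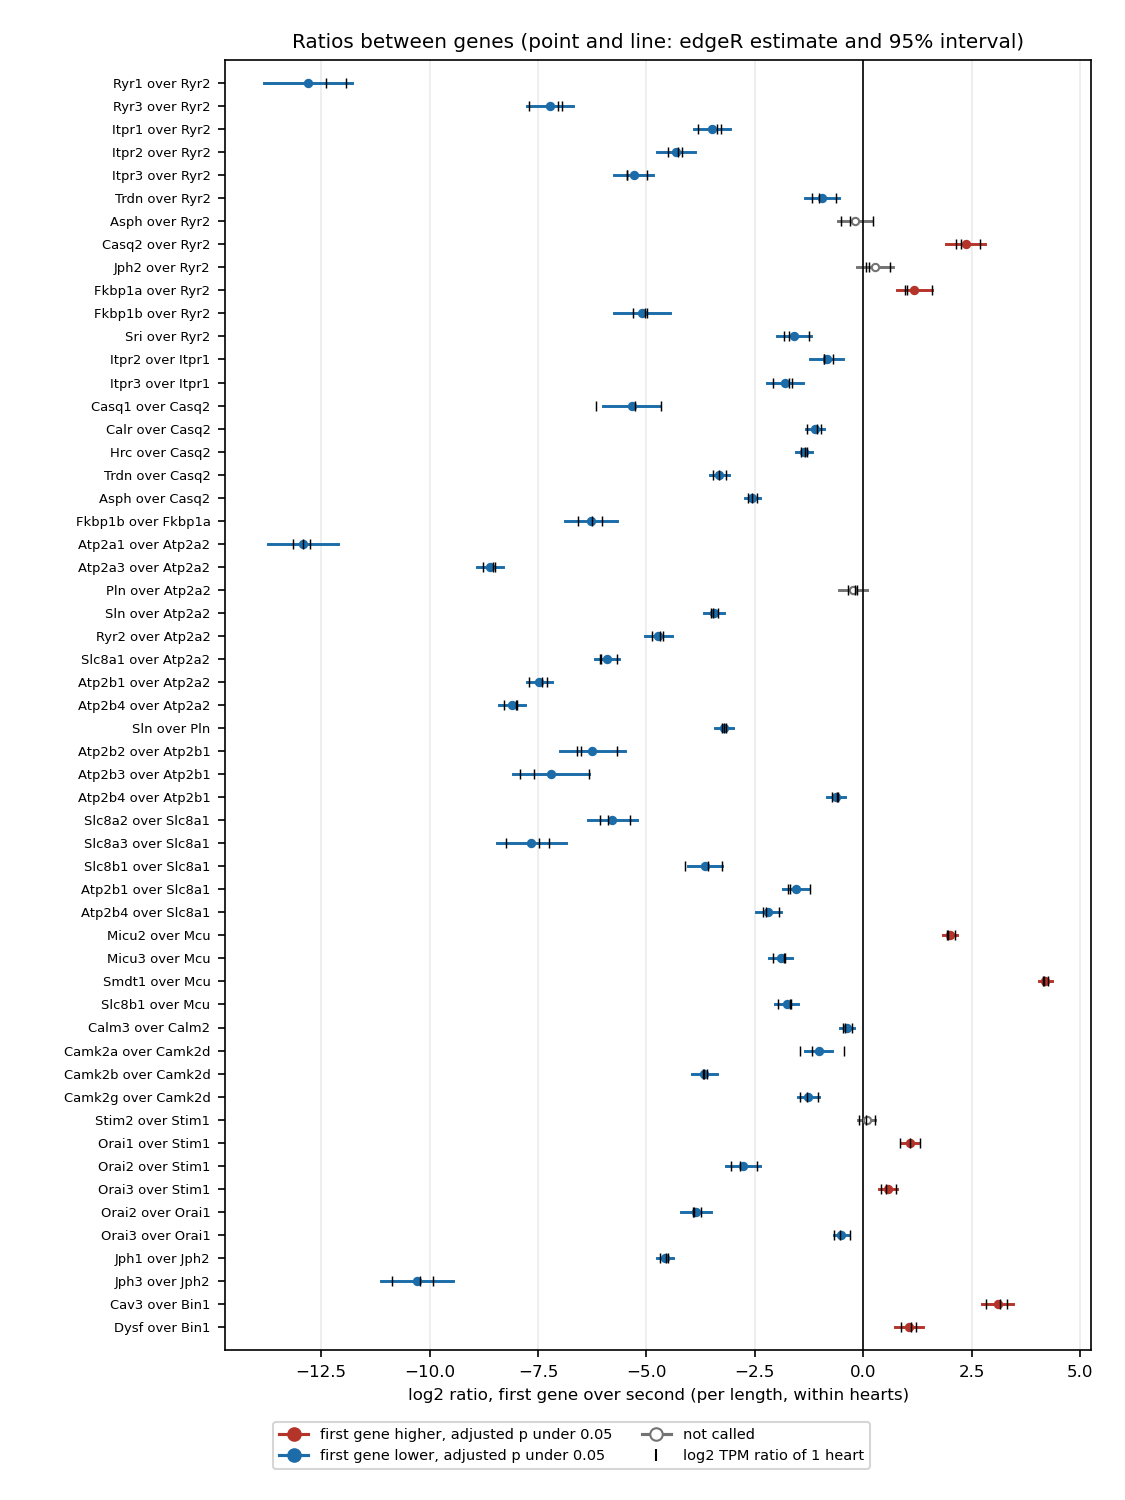
Log2 ratio of the first gene over the second within hearts (horizontal axis), with the edgeR estimate as a point, its 95% interval as a line and the TPM ratio of each heart as a tick, for all 55 ratios. The 8 ratios called higher lie right of 0 and the 43 called lower left of it, and the 4 open points, Asph and Jph2 over Ryr2, Pln over Atp2a2 and Stim2 over Stim1, have intervals that include 0.

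The remaining genes of the sarcoplasmic reticulum and the dyad listed for context were detected in 17 of 19 cases. They were led by Srl, sarcalumenin, a calcium-binding protein of the store, at 725 ± 55.7 TPM, by the endoplasmic reticulum proteins Calu and Hspa5 at 339 ± 23.2 and 318 ± 8.67 TPM, and by Tmem38a, a counter-ion channel of the store, at 286 ± 29.5 TPM. By the annotations in the table, 26 of the 50 genes are assigned to the sarcoplasmic reticulum, 24 of them detected, with a median of 54.9 TPM against 32.9 TPM for the 42 other genes so assigned. For the Z disc the figures were 16 of the 50, 15 of them detected, with a median of 72.5 TPM against 58.6 TPM for 129 other genes. For the T-tubule they were 9 of the 50, 8 of them detected, with a median of 44.5 TPM against 30.5 TPM for 55 other genes. For the mitochondrion the order was the opposite, with a median of 25.8 TPM for 13 of the 50 against 31.1 TPM for 1716 other genes. For the KEGG calcium signalling pathway they were 29 of the 50, 25 of them detected, with a median of 18.2 TPM against 3.44 TPM for 151 other genes. The 50 genes overlap with these annotations by their definition, and no test was made.

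Between hearts, each gene was tested for more spread than genes of like abundance show (edgeR goodness of fit, adjusted over 15181 genes). Of the 50 genes 1 was called, Casq1, against 1.8% of all genes (273 of 15181). At an unadjusted p under 0.05 there were 5, Casq1, Ryr3, Camk2a, S100a1 and Ryr1, against 5.88% of all genes. A highest heart at 1.5 times the lowest or more in TPM was found in 6 of the 45 detected genes, 13.3%, against 11.7% of all detected genes. The median coefficient of variation was 8.51% against 8.83%. The spread of the 50 genes between hearts was therefore close to that of the table as a whole. None of the 55 further pathway genes measured was called by edgeR, also not with a common dispersion, and 1 had an unadjusted p under 0.05.

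Casq1 (ID 12372, chr1:172209894-172219895) had 204, 446 and 664 counts, or 12.6, 26.7 and 38.2 TPM, in hearts 1, 2 and 3. Heart 1 was the lowest and heart 3 the highest (edgeR adjusted p = 8.26e-06). Leaving out heart 1 ended the call (edgeR adjusted p = 0.133), whereas it was kept when heart 2 (7.54e-05) or heart 3 (0.0450) was left out. Casq2 was at 905, 1029.9 and 968 TPM and was highest in heart 2. Casq1 is most abundant in skeletal muscle, so markers of that tissue were measured beside it. The summed level of the 10 skeletal muscle markers measured was 43.9, 89.1 and 154 TPM, lowest in heart 1 and highest in heart 3 like Casq1. Most of it came from Acta1, skeletal actin, which the young heart also expresses, at 24.7, 74.2 and 129.6 TPM, and Mybpc2 was at 3.48, 5.96 and 13.5 TPM, and both were called as varying. The defining fast-fibre troponin Tnnt3 had 29, 14 and 23 counts and Tnni2 had 52, 33 and 34, with heart 1 the highest for both. Mylpf had 15, 9 and 19 counts, highest in heart 3, and Actn3 had 19, 17 and 5, lowest in heart 3; none of these 4 was called. Myh1, Myh2, Myh3 and Tnnc2 had between 0 and 3.04 counts in any heart. Myh4 is not analysed here. Acta2, an actin of smooth muscle and young cardiomyocytes, was likewise lowest in heart 1 and highest in heart 3, at 303, 670.5 and 918 TPM, and was also called. Of the other smooth muscle markers, Tagln at 62.8, 78.2 and 108 TPM, Cnn1 at 16.0, 16.2 and 20.8 TPM and the myosin Myh11 at 24.3, 25.2 and 29.8 TPM were lowest in heart 1 and highest in heart 3 too, whereas Smtn was highest in heart 2 and Myocd in heart 1. None of these was called, but Tagln was with a filter of 1 CPM (edgeR adjusted p = 0.0227). Heart 1, without which the Casq1 call is lost, is also the heart with the airway and lung markers. The part of skeletal muscle, smooth muscle or airway RNA in the Casq1 result was not tested.

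**Figure D4:**
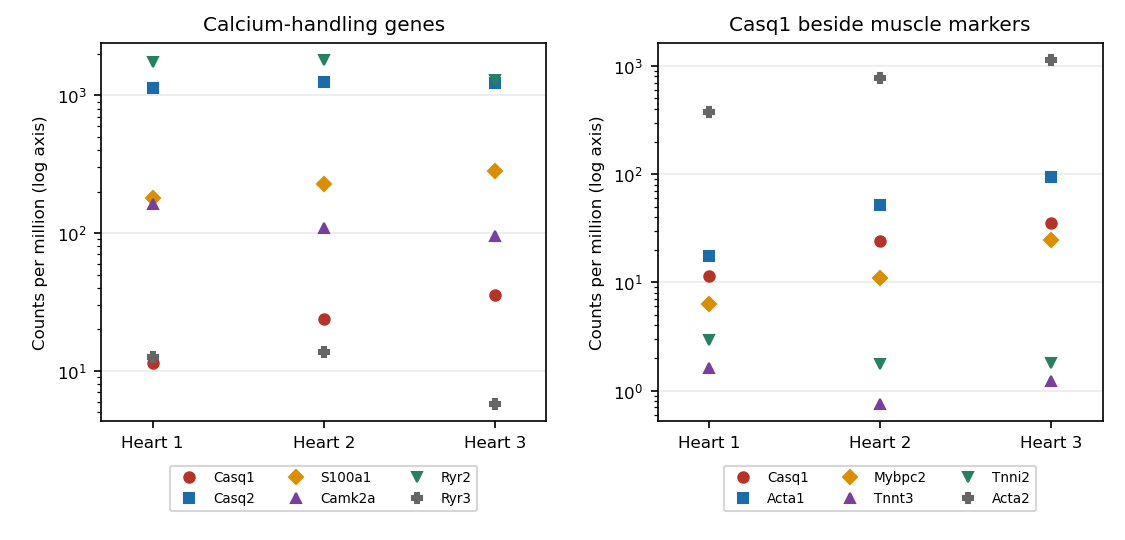
CPM (vertical log axis) in hearts 1, 2 and 3 for 6 calcium-handling genes (left) and for Casq1 beside muscle markers (right), 1 symbol per gene and heart. Casq1, Acta1, Mybpc2 and Acta2 are lowest in heart 1 and highest in heart 3, whereas Tnnt3 and Tnni2 are highest in heart 1.

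The other genes with a small unadjusted p did not pass adjustment. Ryr3, with 226, 254 and 108 counts, had an edgeR adjusted p = 0.0696, and it passed with a filter of 1 CPM (edgeR adjusted p = 0.0238), with a common dispersion (0.0171) and without heart 1 (0.000944). Camk2a had an edgeR adjusted p = 0.181 and S100a1 an edgeR adjusted p = 0.292. For Ryr1 the adjusted p by edgeR was 0.739, with 10 counts in all.

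Long transcripts differed between hearts throughout the table, and the 50 genes hold many of them. Of the 50, 8 genes or 16% have 8000 bases or more, the undetected Ryr1 included. Over detected genes alone they were 7 of 45, against 4.23% of all detected genes. All 7 detected genes of that length (Ryr2, Ryr3, the 3 IP3 receptor genes, Atp2b4 and Slc8a1) were highest in heart 2 in TPM. So were 65.5% of the 548 detected genes of that length. Itpr3 barely differed between hearts, and on the log2 scale used below it was highest in heart 3, at -0.07, 0.02 and 0.04. Heart 3 was the lowest in TPM for 4 of the 7 and heart 1 for 3, beside 54.6% and 42.2% of the 548. Over the 100 detected genes of 12000 bases or more, the median log2 difference of a heart from the other hearts was -0.10 in heart 1, 0.17 in heart 2 and -0.10 in heart 3. The 956 detected genes under 1000 bases had medians of -0.02, -0.07 and 0.09. Ryr2 was at 0.14, 0.24 and -0.41 on this scale and Slc8a1 at -0.05, 0.27 and -0.24. Ryr3 was at 0.35, 0.57 and -1.15. For Ryr2, Slc8a1 and Ryr3 alike, heart 3 lay further down than the lower quartile of genes of 12000 bases or more, -0.20. Among short transcripts, S100a1 (528 bases) was at -0.53, -0.02 and 0.49, further from 0 in hearts 1 and 3 than the quartiles of genes under 1000 bases, which were -0.14 in heart 1 and 0.19 in heart 3. The part of transcript length in these differences was not tested.

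**Figure D5:**
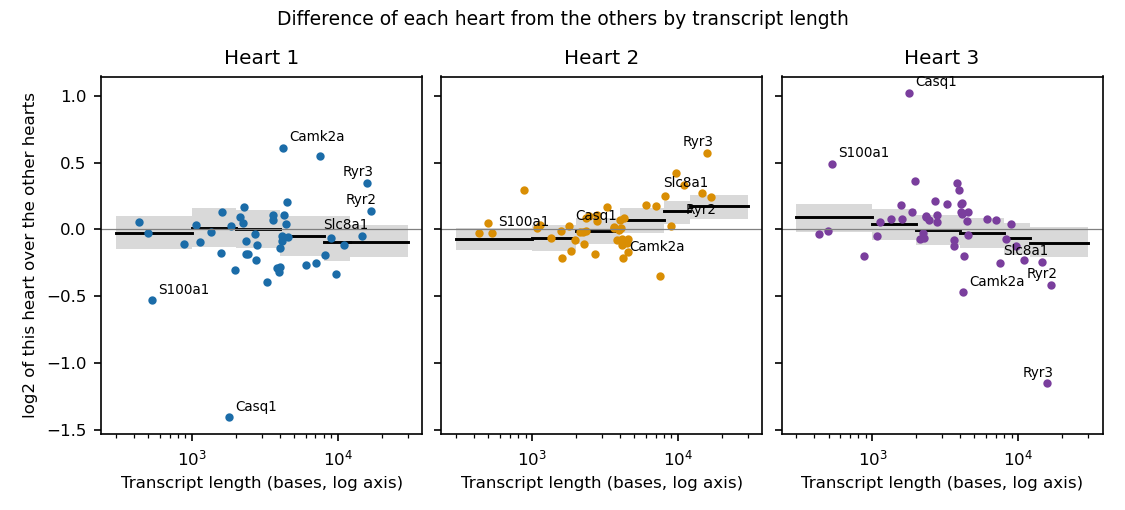
Log2 of a heart over the mean of the other hearts (vertical axis) against transcript length in bases (log axis) for the 45 detected genes as points, with the median of all detected genes in each length class as a black line and their quartiles as a grey band. In heart 2 the line climbs to 0.17 for the longest class. Casq1, S100a1, Camk2a, Ryr3 and Ryr2 lie outside the band in hearts 1 and 3, and so do others such as Camk2d, Camk2b and Bin1. The band ends at the quartiles, so many genes of every class lie outside it.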

How the data were processed

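Expected counts and FPKM per gene were deposited by the authors in 1 table, per the file headers. About 87.5% of counts were whole within 0.005, and the rest fractional. The submitters' processing notes name HISAT and the GRCm38.p6 build. The sources used here do not state the counting tool, annotation, read layout or strand setting. TPM, CPM and gene lengths (count over FPKM) were computed here. Strands and longest transcripts came from GENCODE M21, matched by gene ID for all 50 genes, because the table's strand differed for 2612 of 17513 genes. Counts were rounded and scaled by TMM. The tests ran in edgeR 4.0.16 (R 4.3.3) over genes with 10 counts or more in all, with Benjamini-Hochberg adjustment, and were tested on simulated data. DESeq2 1.42.0 and limma 3.58.1 served as alternatives. Counts of each pair of hearts differed beyond sampling noise (chi-square per degree of freedom 14.6, 23.7 and 9.70), so each was counted as a sample. The members and lists were chosen with earlier results of these data known. Of the 50 genes all are named; of other lists the 4 highest, those called and defining markers, while other markers were named after their values were seen, and 1 gene that this rule names is not reported here. Strit1, Stimate and Myh4 are not analysed here. The floor of 3 counts covers counting error only, whereas the intervals of the ratios include the spread between hearts.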

Additional observations from a re-analysis of the deposited data

How the results depend on the processing

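Of 55 ratios, 44 kept call and direction under every alternative in which they could be tested. Ratios of genes with few counts could not be tested in all of them. The 6 reversals came from leaving out the length correction: Casq2 over Ryr2 -0.42 (no longer called, edgeR adjusted p = 0.0574), Jph2 over Ryr2 -1.74, Fkbp1a over Ryr2 -2.23, Calm3 over Calm2 0.54, Orai1 over Stim1 -0.35 and Orai3 over Stim1 -0.60. The construction of that alternative, counts not divided by length, shows the cause. The number of ratios called was 51, and between 47 (of the 50 testable with a filter of 1 CPM) and 54 (no length correction) under the alternatives, with 50 to 51 when a heart was left out and 52 without the replicate block. Lengths implied in each heart and the spread of each gene alone were alternatives chosen after seeing the data, and gave 51 and 50 ratios. Labels give replicate numbers in 1 group, so the heart was the block in the ratio tests, and no paired analysis of the other results was possible because there is no second group.

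Genes varying between hearts numbered 412 with a common dispersion and between 117 and 150 when a heart was left out, against 273. Genes of the 50 that varied numbered 2, Casq1 and Ryr3, with a filter of 1 CPM and with a common dispersion, and 1 when any heart was left out, which was Ryr3 without heart 1. The summed level was 23627 as CPM, without length scaling, and between 15162 and 15791 TPM when a heart was left out. Detected genes numbered 47 at 0.5 CPM, 41 at 5 CPM and 45 to 46 when a heart was left out. Genes with few counts, such as Ryr1, Jph3, Atp2b3 and Slc8a3, have imprecise ratios at this depth.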
